A study of Mus musculus with 4 samples.

Results

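The genes described here carry glucose to pyruvate, decide between lactate and the mitochondrion, and respond to low oxygen. They were chosen by name as a list of 36 mouse genes, by a rule that uses no measured value although earlier results of these data were known, and all 36 had a row among the 36144 rows of the count table. Of these, 35 had a mean normalised count of at least 50 over the 4 libraries, the limit used for the 11652 genes compared below, and only *Eno2* was under it. By role, the list held 3 genes of glucose entry, 9 of upper glycolysis, 6 of lower glycolysis, 2 lactate dehydrogenase subunits, 8 genes of pyruvate entry and its control, 3 of the oxygen sensor and 5 targets of hypoxia-inducible factor (HIF). RNA was sequenced in bulk from mouse colonic organoids, which are cultures of colonic epithelium grown in Matrigel, at passage 3. The cultures were left untreated or given 2 mM sodium butyrate, and were collected at day 2 or day 3, which the labels of the treated libraries equate with 48 h and 72 h of butyrate. Each of the 4 conditions had 1 library. All 4 came from male mouse tissue at an age of 24 weeks, recorded as wild type (WT) in the labels, whereas the study describes the cultures as made from a single Hes1-GFP reporter mouse. Every culture grew in complete crypt medium with EGF, Noggin, R-spondin, the Wnt activator CHIR99021 and the ROCK inhibitor Y-27632, so the untreated cultures also carried these agents.

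Glycolysis splits glucose into pyruvate in the cytosol, in an upper phase that spends ATP and a lower phase that regains it. Pyruvate is then reduced to lactate by lactate dehydrogenase, or enters the mitochondrion through the pyruvate carrier and is oxidised by the pyruvate dehydrogenase complex, which the PDH kinases switch off. When oxygen is plentiful, prolyl hydroxylases mark HIF-α proteins for destruction, and when it is scarce HIF raises the transcription of many glycolytic enzymes, of *Pdk1* and of genes such as *Vegfa* and *Bnip3*. HIF activity is set largely by protein stability, so that transcript levels do not measure it directly. Butyrate is a major fuel of the colonic epithelium, oxidised in mitochondria, and also inhibits histone deacetylases.

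Library totals lay between 20790225 and 24207840 counts, and mitochondrially encoded transcripts took 14.1% to 18.4% of them. The 36 genes together took 1.49% and 1.89% of all counts in untreated and butyrate-treated organoids at day 2, and 1.34% and 1.67% at day 3. Epithelial identity was clear, since the 8 epithelial markers summed to 144061 to 159581 normalised counts while lists for fibroblasts, endothelium, immune cells and muscle or nerve summed to between 15.1 and 72.4. *Col3a1* and *Lum* (fibroblast) and *S100b* (nerve) had 0 counts in all 4 libraries. Marker transcripts of the epithelial cell types differed between the libraries. All 8 colonocyte markers were higher with butyrate at day 2 (median log2 fold change 0.37) and all 8 were lower at day 3 (−0.44), while the 5 stem cell markers had medians of −0.31 and 0.62. The 8 proliferation markers had medians of 0.03 at day 2 and 0.34 at day 3, goblet markers −0.18 and −0.83, and the 6 endocrine markers 0.05 and −0.80, with 5 of the 6 lower at day 3. Their part in the differences given below was not tested, and in bulk RNA fewer cells of a type and less RNA per cell cannot be told apart.

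Log2 fold changes were taken from counts scaled with DESeq2 size factors, with a pseudocount of 1. Each is followed in parentheses by an exact 95% interval that covers counting error only. With 1 library per condition there is no spread between replicates to set a difference against, no p-value was computed, and the words higher and lower describe these libraries. The comparison of day 3 with day 2 within a treatment is given as a measure of how far libraries of like treatment lay apart. It shares its libraries with the butyrate comparisons.

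Butyrate-treated organoids had more transcript of most glycolytic enzymes at both days, and no gene of the list differed as much as 2-fold between butyrate and untreated cultures. With scaling to total counts, *Bnip3* alone passed 2-fold, at day 3. Of all genes, 3.93% were at least 2-fold higher and 1.54% lower at day 2, and 2.33% higher and 1.6% lower at day 3. At day 2, 26 of the 35 genes compared were higher and 9 lower, beside 46.9% of all genes higher and 53.1% lower. At day 3, 25 were higher and 10 lower, beside 49.9% and 50.1% of all genes. Median log2 fold changes were 0.16 and 0.22 for the list, and −0.03 and −0.00063 for all genes. A total of 21 genes were higher at both days and 5 were lower at both, whereas 29.5% of all genes were higher at both and 32.7% lower. The differences were small one by one. At least 1.5-fold higher with butyrate were 5 genes at day 2 (*Hk1*, *Pfkm*, *Pgam1*, *Eno1* and *Ndrg1*), where 8.94% of all genes passed this fold, and 3 at day 3 (*Pfkm*, *Egln3* and *Bnip3*), against 5.88%. At least 1.5-fold lower were 0 genes at day 2, with a background of 6.43%, and 1 at day 3 (*Mpc2*), with a background of 5.13%. Between the untreated libraries, day 3 over day 2, the median was −0.08, with 11 genes higher and 24 lower, beside 49% and 51% of all genes. In that comparison 1 gene (*Hif1a*) was at least 1.5-fold higher, against 3.08% of all genes, and 2 (*Pfkfb3* and *Ankrd37*) were at least 1.5-fold lower, against 3.32%. Of these, only *Ankrd37* passed 2-fold lower, as did 0.841% of all genes, and 0 passed 2-fold higher, against 0.755%. Between the butyrate libraries the median was −0.11, with 14 higher and 21 lower, beside 48.8% and 51.2% of all genes. Here *Aldoc* and *Ankrd37* were the 2 genes at least 1.5-fold lower, against 8.44% of all genes, and 0 were at least 1.5-fold higher, against 6.63%. None reached 2-fold, which 1.66% of all genes did upwards and 2.51% downwards.

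**Figure D1:**
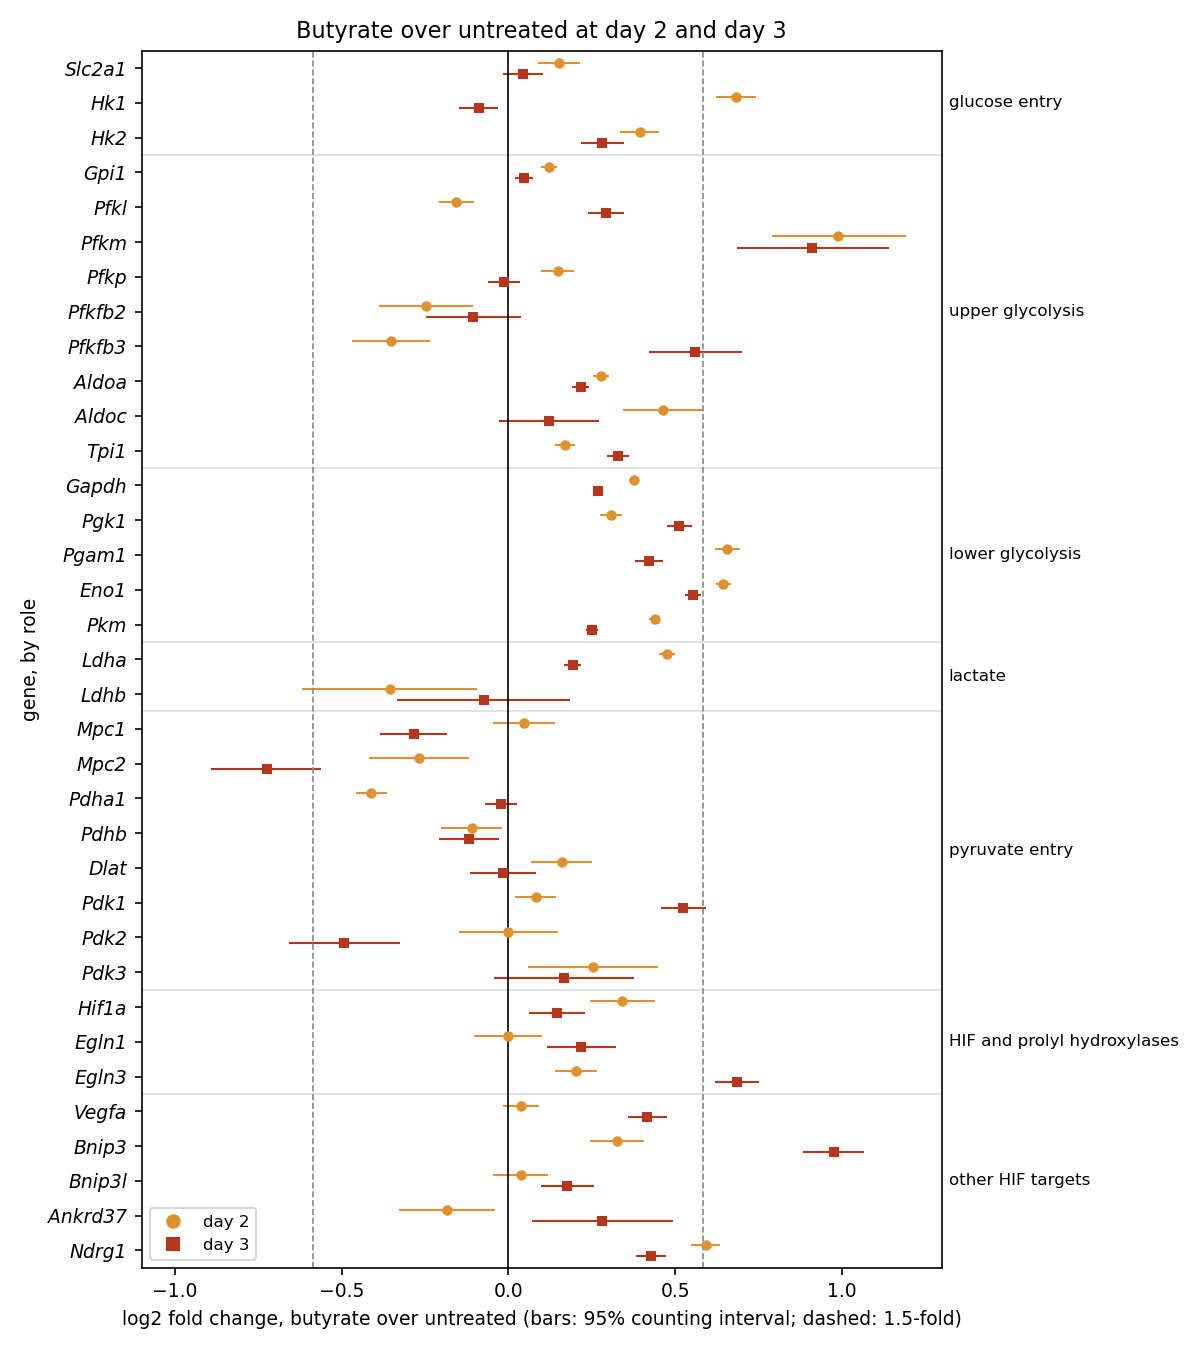
Log2 fold change of butyrate over untreated organoids for the 35 genes compared, grouped by role, with circles for day 2, squares for day 3 and bars for the 95% counting interval; dashed lines mark 1.5-fold. All 5 lower glycolysis genes lie to the right of 0 at both days, whereas the genes of pyruvate entry lie on both sides.

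Glucose enters the cell through transporters such as GLUT1, encoded by *Slc2a1*, and is trapped as glucose 6-phosphate by hexokinases. The normalised count of *Slc2a1* was 3682 in untreated and 4092 in treated organoids at day 2, and 4394 and 4529 at day 3. The log2 fold change was 0.15 (0.09 to 0.22) at day 2 and was not detectable at day 3, at 0.04 (−0.02 to 0.10). *Hk2*, the inducible hexokinase, was higher with butyrate at both days, with a normalised count of 3960.2 in untreated and 5203 in treated organoids at day 2, and 3703 and 4502 at day 3, or log2 fold changes of 0.39 (0.33 to 0.45) and 0.28 (0.22 to 0.35). *Hk1*, the housekeeping hexokinase on chromosome 10 from 62268855 to 62379908 (GRCm38), did not keep its direction. It had a normalised count of 3539 in untreated and 5679.6 in treated organoids at day 2, and 5029.7 and 4729 at day 3. The untreated library at day 2 was the low one, and the other 3 lay within 4729 to 5679.6. Accordingly *Hk1* was 1.6-fold higher with butyrate at day 2, with a log2 fold change of 0.68 (0.62 to 0.74), but slightly lower at day 3, at −0.09 (−0.15 to −0.03), a difference not detectable with scaling to total counts. Between the untreated libraries its log2 difference was 0.51 (0.44 to 0.57), less than with butyrate at day 2 but larger in size than at day 3.

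The upper phase turns glucose 6-phosphate into triose phosphates. *Gpi1*, *Aldoa* and *Tpi1*, the isomerases and the main aldolase of this phase, were each higher with butyrate at both days by small amounts, with log2 fold changes of 0.12 and 0.05, 0.28 and 0.22, and 0.17 and 0.33 at day 2 and day 3. All 6 of these intervals lay above 0. The largest relative difference of any gene on the list at day 2 was in *Pfkm*, the muscle-type phosphofructokinase on chromosome 15 from 98092589 to 98132451. Its normalised count was 303 in untreated and 602 in treated organoids at day 2, and 251 and 472 at day 3, so that both treated libraries lay above both untreated ones. That is 1.98-fold at day 2, or 0.99 (0.79 to 1.19) as log2, and 1.88-fold at day 3, or 0.91 (0.69 to 1.14). Its exons share 18 bases with *Senp1* on the opposite strand, which had 6681 counts in all against 1650 for *Pfkm*. *Pfkm* is also the least abundant of the 3 phosphofructokinase genes in these organoids.

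The liver-type *Pfkl* and platelet-type *Pfkp* supplied most phosphofructokinase transcript and did not share this pattern. *Pfkl* had a normalised count of 6035 in untreated and 5414 in treated organoids at day 2, and 5114 and 6259 at day 3, with a log2 fold change of −0.16 (−0.21 to −0.10) at day 2 and 0.29 (0.24 to 0.35) at day 3. It was thus lower with butyrate at day 2 and higher at day 3. *Pfkp* had log2 fold changes of 0.15 (0.10 to 0.20) and −0.01 (−0.06 to 0.03). Its exons share 748 bases with exons of *Pitrm1* on the opposite strand, whose counts came to 40.9% of those of *Pfkp*, and the use of strand in counting is not given in the sources used here.

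PFKFB enzymes set the level of fructose 2,6-bisphosphate, the activator of phosphofructokinase. *Pfkfb3*, a known HIF target on chromosome 2 from 11471433 to 11554077, had a normalised count of 1282 in untreated and 1004 in treated organoids at day 2, and 728 and 1074 at day 3. The untreated library at day 3 was the lowest and the untreated library at day 2 the highest, with both treated libraries between them. Its log2 fold change with butyrate was therefore −0.35 (−0.47 to −0.23) at day 2 and 0.56 (0.42 to 0.70) at day 3, and the difference between the untreated libraries, −0.82 (−0.95 to −0.68), exceeded both. *Pfkfb2*, the heart-type enzyme, was lower with butyrate at day 2, at −0.25 (−0.39 to −0.11), and not detectably different at day 3, at −0.11 (−0.25 to 0.04), and an overlapping or near-identical gene, *Gm29427*, had counts equal to 2.78% of its own. The brain-type aldolase gene *Aldoc* was higher with butyrate at day 2, with normalised counts of 945 and 1303 at day 2 and 718 and 781 at day 3 in untreated and treated organoids. Its log2 fold change was 0.46 (0.34 to 0.58) at day 2 and 0.12 (−0.03 to 0.27) at day 3, and it was lower at day 3 than at day 2 under either treatment.

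**Figure D2:**
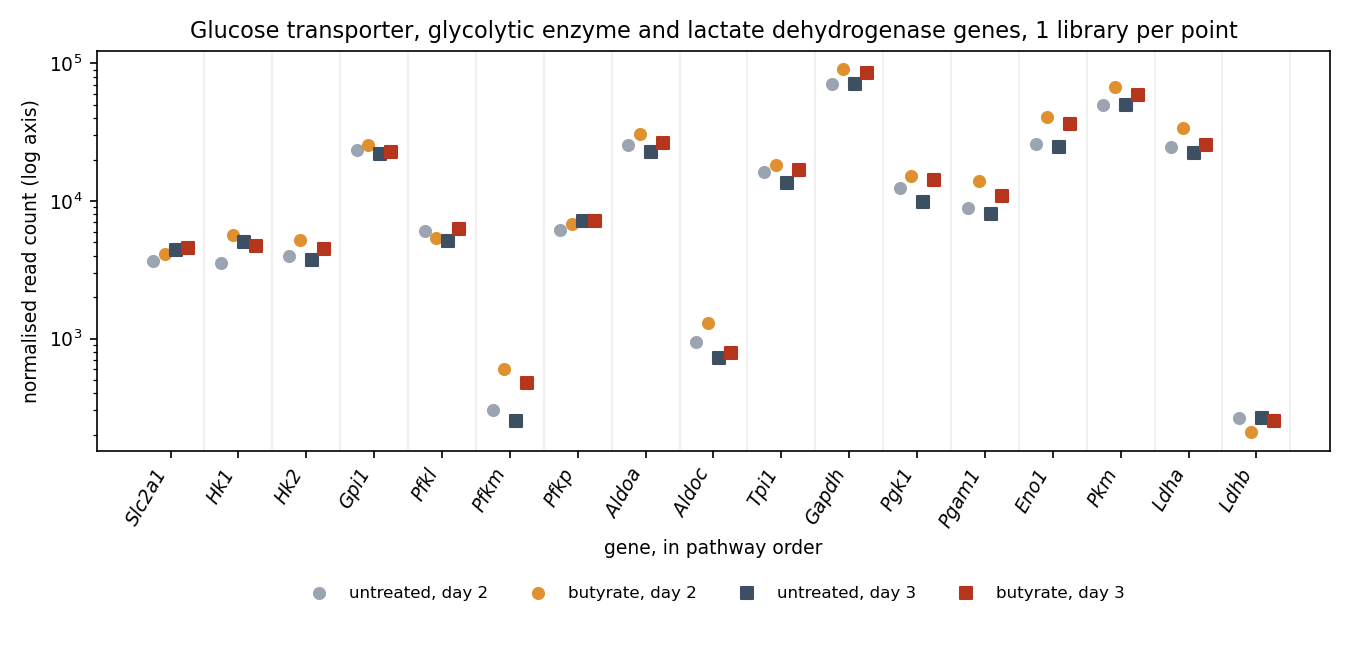
Normalised read count, on a log axis, of 17 genes from glucose entry to lactate in pathway order, with 1 point for each of the 4 libraries (circles day 2, squares day 3). The points of *Pgam1*, *Eno1* and *Pkm* from butyrate-treated organoids lie above both untreated points, while those of *Hk1* and *Pfkl* overlap.

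Among the roles of the list, the most uniform pattern was in the lower phase, which makes pyruvate and ATP from triose phosphate. All 5 of its genes that were compared were higher with butyrate at both days, with every counting interval above 0 and with medians of 0.44 at day 2 and 0.42 at day 3. Intervals narrow as counts grow, so for transcripts this abundant they exclude 0 at small differences. For each of the 5, both treated libraries lay above both untreated libraries. Colonocyte markers had medians of 0.37 and −0.44, and proliferation markers 0.03 and 0.34, with 5 of 8 higher at both days, and their part in this was not tested. Summed over the listed genes of the phase, normalised counts with butyrate were 1.37 times those of untreated organoids at day 2 and 1.26 times at day 3. Outside the list the pattern did not always hold. The pyruvate kinase gene *Pklr*, named after its values were seen, had log2 fold changes of 0.41 (0.33 to 0.48) at day 2 and −0.22 (−0.30 to −0.13) at day 3. *Gapdh*, glyceraldehyde 3-phosphate dehydrogenase and a common reference transcript in qPCR, had a normalised count of 70282 in untreated and 91205.5 in treated organoids at day 2, and 70412 and 84817 at day 3. Its log2 fold changes of 0.38 (0.36 to 0.39) and 0.27 (0.25 to 0.28) compare with 0.0027 (−0.01 to 0.02) between the untreated and −0.10 between the treated libraries, day 3 over day 2. The gene has 103 near-identical copies in the annotation, of which the 102 in the table had counts equal to 0.791% of its own. *Pgk1*, phosphoglycerate kinase, is X-linked and had a normalised count of 12351 in untreated and 15290.4 in treated organoids at day 2, and 9914 and 14144 at day 3, or log2 fold changes of 0.31 (0.27 to 0.34) and 0.51 (0.47 to 0.55). Near-identical copies, chiefly *Gm5537*, had counts equal to 20.2% of those of *Pgk1*, and with *Gm5537* and *Pgk1-rs7* added the log2 fold changes were 0.33 and 0.60. Between the untreated libraries *Pgk1* differed by −0.32, as much as with butyrate at day 2.

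*Pgam1*, the phosphoglycerate mutase on chromosome 19 from 41911923 to 41918660, had a normalised count of 8866 in untreated and 13979 in treated organoids at day 2, and 8071 and 10809 at day 3. It was 1.58-fold higher with butyrate at day 2, with a log2 fold change of 0.66 (0.62 to 0.70), and 1.34-fold at day 3, with 0.42 (0.38 to 0.46). From day 2 to day 3 it differed by −0.14 in untreated and −0.37 in treated organoids on this scale. *Eno1*, the ubiquitous enolase on chromosome 4 from 150236721 to 150248879, had a normalised count of 26020.2 in untreated and 40667 in treated organoids at day 2, and 24707 and 36252.5 at day 3. The gap was 1.56-fold at day 2, or 0.64 (0.62 to 0.67), and 1.47-fold at day 3, or 0.55 (0.53 to 0.58), and day 3 differed from day 2 by −0.07 in untreated and −0.17 in treated organoids on the same scale. *Pkm*, the M-type pyruvate kinase gene, had a normalised count of 49929 in untreated and 67710.5 in treated organoids at day 2, and 49701 and 59097 at day 3, giving log2 fold changes of 0.44 (0.42 to 0.46) and 0.25 (0.23 to 0.27), beside −0.01 and −0.20 between the days. The neuronal enolase gene *Eno2* had 7 and 15 counts at day 2 and 13 and 8 at day 3, in untreated and treated organoids respectively, and no difference was detectable at this depth. Over the 14 compared genes that encode enzymes from hexokinase to pyruvate kinase, 11 were higher with butyrate at both days, 10 of them with both intervals above 0, and 0 were lower at both. Of all genes, 29.5% were higher at both days, 13.6% had both intervals above 0 and 32.7% were lower at both. The share with intervals above 0 depends on count, and all genes were not matched to the listed ones in count.

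Since the listed lower-phase genes lay together, the promoter windows of *Gapdh*, *Pgk1* and *Pgam1*, the 3 of the 5 with a single window, are shown, beside that of their neighbour in the pathway *Tpi1*. The windows are RefSeq sequences of GRCm38.p6, 300 bases long, from 250 bases before the annotated start to 50 after it, read along the gene. They lie at chr6:125165724-125166023 on the minus strand, chrX:106186850-106187149 on the plus strand, chr19:41911621-41911920 on the plus strand and chr6:124814109-124814408 on the minus strand. Capitals mark the core of the hypoxia response element, searched as ACGTG or GCGTG on both strands, so that CACGT and CACGC also count and overlapping matches are counted separately.
Gapdh: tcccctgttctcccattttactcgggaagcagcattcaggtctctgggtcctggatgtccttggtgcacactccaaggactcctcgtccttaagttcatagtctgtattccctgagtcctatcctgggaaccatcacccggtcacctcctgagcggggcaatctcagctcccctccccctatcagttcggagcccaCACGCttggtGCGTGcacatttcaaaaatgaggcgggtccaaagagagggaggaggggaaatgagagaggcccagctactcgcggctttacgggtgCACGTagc
Pgk1: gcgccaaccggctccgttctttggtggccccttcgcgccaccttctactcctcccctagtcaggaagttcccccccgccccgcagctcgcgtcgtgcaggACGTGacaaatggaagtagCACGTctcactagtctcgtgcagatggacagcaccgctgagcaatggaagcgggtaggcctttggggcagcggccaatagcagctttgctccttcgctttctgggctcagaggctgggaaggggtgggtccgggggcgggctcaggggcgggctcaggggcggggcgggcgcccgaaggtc
Pgam1: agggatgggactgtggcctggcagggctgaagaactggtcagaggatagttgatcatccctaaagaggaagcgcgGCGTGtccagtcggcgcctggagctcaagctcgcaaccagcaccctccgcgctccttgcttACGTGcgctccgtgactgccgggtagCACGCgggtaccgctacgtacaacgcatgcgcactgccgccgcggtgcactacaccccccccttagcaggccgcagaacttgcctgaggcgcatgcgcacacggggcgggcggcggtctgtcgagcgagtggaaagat
Tpi1: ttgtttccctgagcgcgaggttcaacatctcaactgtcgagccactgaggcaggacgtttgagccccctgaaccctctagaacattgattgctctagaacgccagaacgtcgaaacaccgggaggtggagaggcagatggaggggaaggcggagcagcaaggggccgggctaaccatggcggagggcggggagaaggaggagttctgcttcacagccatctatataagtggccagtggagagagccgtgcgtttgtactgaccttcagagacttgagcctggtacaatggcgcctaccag
The windows of *Gapdh*, *Pgk1* and *Pgam1* held 3, 2 and 3 matches, and that of *Tpi1* held 0, although *Tpi1* was also higher with butyrate at both days. The windows of the other 2 genes, not printed, held 2 matches each for the 3 of *Eno1*, and 0 and 2 for those of *Pkm*. In *Pgk1* the matches began 150 and 131 bases before the start, on opposite strands. Windows were found for 34 of the 36 genes, 52 windows in all, and 40 of these (76.9%) held a match, against 43.8% of all 32851 windows. At least 3 matches were in 26.9% of the windows of listed genes and in 8.93% of all windows. A match of 5 letters is a description of the sequence and not a binding site, and base composition was not matched. The list was also chosen to hold HIF targets and glycolytic enzymes, many of which HIF raises, so its higher share is not an independent result.

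Per unit of length, the lower phase also held the 2 most abundant transcripts of the list. Counts per kb of merged exon length, scaled to the same sum in every library (TPM), averaged 2027 for *Gapdh* (1677 to 2399 over the 4 libraries), 1198 for *Pkm* (979 to 1472), 958 for *Aldoa* (771 to 1149) and 853 for *Ldha* (666 to 1119). The order *Gapdh*, *Pkm*, *Aldoa*, *Ldha* was the same in each of the 4 libraries, although the ranges of the last 3 overlapped across libraries. *Eno1*, *Tpi1*, *Pgk1* and *Pgam1* averaged 629, 623, 611 and 558 with overlapping ranges. *Eno1* was above *Pgam1* in each library, while every other pair of the 4 changed places between libraries. At the other end, *Pfkfb2* averaged 12.0, *Mpc2* 9.88 and *Eno2* 0.236. Merged exon length joins every annotated exon of a gene and can exceed the length of the transcripts present. Levels, ranks, ratios and shares per kb between genes, here and below, therefore also depend on the annotation.

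Pyruvate becomes lactate through lactate dehydrogenase, a tetramer of A and B subunits. *Ldha*, which favours lactate formation, had a normalised count of 24504 in untreated and 34077 in treated organoids at day 2, and 22398 and 25591 at day 3. Its log2 fold change was 0.48 (0.45 to 0.50) at day 2 and 0.19 (0.17 to 0.22) at day 3, with both treated libraries above both untreated ones. From day 2 to day 3 it differed by −0.13 in untreated and −0.41 in treated organoids, the latter larger in size than the difference between treatments at day 3. *Ldhb* was scarce, with a normalised count of 266 in untreated and 208 in treated organoids at day 2, and 264 and 251 at day 3, and was lower with butyrate at day 2 (−0.35, interval −0.62 to −0.09), with no detectable difference at day 3 (−0.07, −0.33 to 0.19). Per kb of exon, *Ldhb* made up 2.24% and 1.27% of transcript from *Ldha* and *Ldhb* in untreated and treated organoids at day 2, and 2.42% and 2.02% at day 3.

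The genes of the mitochondrial route had no common direction. Of the 8, 2 were higher with butyrate at both days and 3 lower at both, close to the 29.5% and 32.7% of all genes, 3 went in opposite directions, and the medians were 0.02 and −0.07. *Mpc2*, a subunit of the mitochondrial pyruvate carrier on chromosome 1 from 165460637 to 165481214, had a normalised count of 772 in untreated and 641 in treated organoids at day 2, and 841 and 509 at day 3. Both treated libraries lay below both untreated ones, with log2 fold changes of −0.27 (−0.42 to −0.12) and −0.72 (−0.89 to −0.56), and the day 3 value was the lowest of any gene on the list. Its partner subunit *Mpc1* had log2 fold changes of 0.05 (−0.05 to 0.14) at day 2, not a detectable difference, and −0.28 (−0.38 to −0.18) at day 3, and its near-identical copy *Mpc1-ps* had counts equal to 2.74% of its own. *Pdha1*, the catalytic alpha subunit of pyruvate dehydrogenase, was lower with butyrate at day 2 and not detectably different at day 3. Its normalised counts were 8064 and 6066 at day 2 and 7264 and 7147 at day 3 in untreated and treated organoids, or log2 fold changes of −0.41 (−0.46 to −0.36) and −0.02 (−0.07 to 0.02). Its exons share 603 bases with *Map3k15* on the opposite strand, whose counts came to 4.16% of its own. The beta subunit gene *Pdhb* was slightly lower at both days, with log2 fold changes of −0.11 and −0.12, and *Dlat*, the acetyltransferase of the complex, had 0.16 (0.07 to 0.25) and −0.02 (−0.12 to 0.08). The ratio of *Ldha* to *Pdha1* per kb was 3.43 in untreated and 6.34 in treated organoids at day 2, and 3.48 and 4.04 at day 3.

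PDH kinases phosphorylate and inactivate pyruvate dehydrogenase. *Pdk1*, a HIF target, had a normalised count of 3963 in untreated and 4195 in treated organoids at day 2, and 3049 and 4387 at day 3. Its log2 fold change was small at day 2, at 0.08 (0.02 to 0.14), and larger at day 3, at 0.52 (0.46 to 0.59), where the untreated library was the lowest and the treated library the highest of the 4. *Pdk2* had no detectable difference at day 2, at 0.00019 (−0.15 to 0.15), and was lower at day 3, at −0.49 (−0.66 to −0.33). *Pdk3* was higher at day 2, at 0.25 (0.06 to 0.45), with a day 3 interval that included 0 (−0.04 to 0.38). Among the transcript of *Pdk1*, *Pdk2* and *Pdk3*, *Pdk1* took 57.6% and 57.2% of transcript per kb at day 2 and 50.9% and 63.2% at day 3, while *Pdk2* took 25.3% and 23.7%, and then 30.6% and 18.8%.

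Shares of isozymes within a step also differed between libraries, and for *Hk1* and *Hk2*, the hexokinases listed, they lay farther apart between the untreated libraries than between treatments. Per kb of exon, *Hk2* held 61.5% (60.4% to 62.6%) of the transcript from *Hk1* and *Hk2* in untreated organoids and 56.7% (55.8% to 57.6%) in treated organoids at day 2. At day 3 it held 51.3% (50.2% to 52.3%) and 57.6% (56.6% to 58.7%), so the share was lower with butyrate at day 2 and higher at day 3. *Pfkm* was a minor isozyme in every library, with 6.25% and 12.0% at day 2 and 5.46% and 8.78% at day 3. *Pfkl* held 54.2% to 62.3% and *Pfkp* 31.4% to 38.9% over the 4 libraries. That order rests on exon length, since *Pfkp* has 13401 bases of merged exon against 6675 for *Pfkl*, and without a length *Pfkp* led with 49.1% to 57.2% of counts. *Aldoc* held at most 3.64% of transcript from *Aldoa* and *Aldoc*, and *Eno2* under 0.1% of enolase transcript from *Eno1* and *Eno2*.

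**Figure D3:**
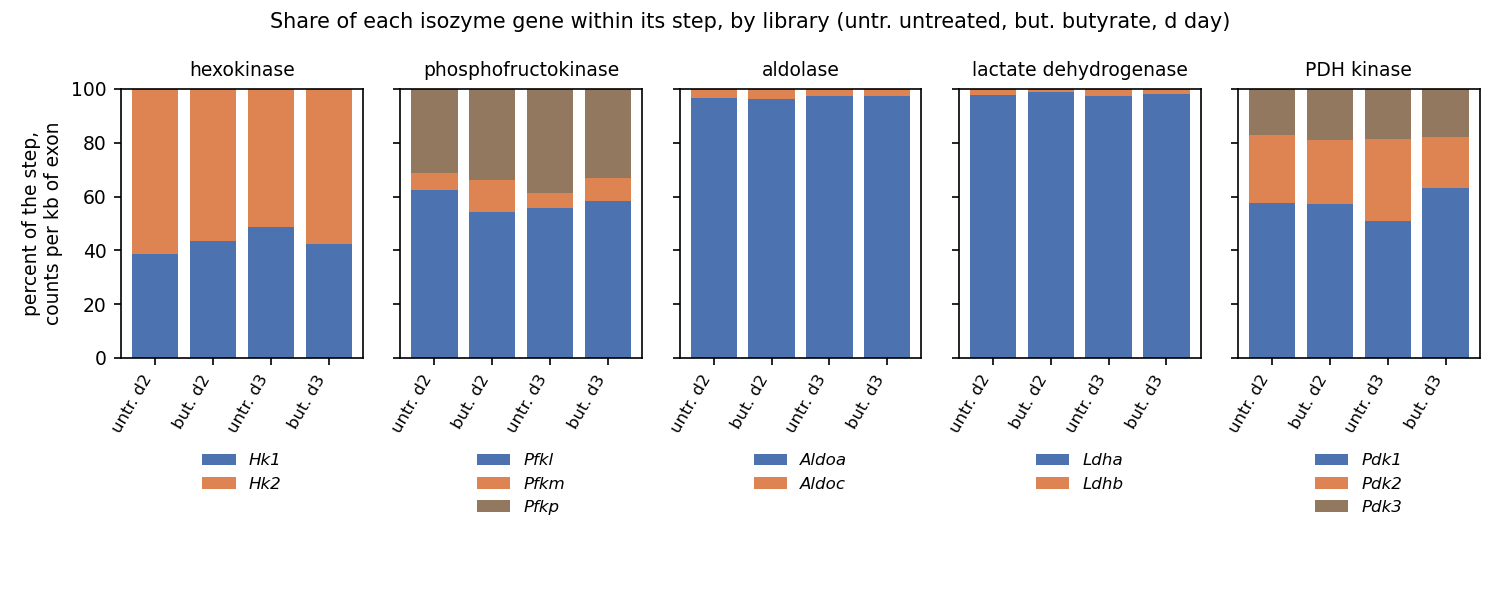
Stacked bars give the percent of each isozyme gene among the listed genes of its enzyme step, from counts per kb of exon, for the 4 libraries (untreated and butyrate at day 2, then at day 3). *Aldoa* and *Ldha* fill nearly all of their steps, *Pfkm* is at 12.0% at most, and the *Pdk1* share is highest in the butyrate library at day 3.

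The oxygen sensor and HIF target genes had a larger median difference at day 3 than at day 2, although *Hif1a* and *Ndrg1* went the other way. Of the 8, 6 were higher with butyrate at day 2 with a median of 0.12, and 8 were higher at day 3 with a median of 0.35, all 8 with intervals above 0. Over all genes, not matched in count, 46.9% and 49.9% were higher, and 27.7% had an interval above 0 at day 3. No test of the difference between the days was possible. At day 3 the 5 stem cell markers (median 0.62) and the 8 proliferation markers (0.34) were also higher with butyrate, and their part in this was not tested. *Hif1a*, the oxygen-regulated HIF subunit on chromosome 12 from 73901375 to 73947530, had a normalised count of 1485 in untreated and 1881 in treated organoids at day 2, and 2249 and 2489 at day 3, or log2 fold changes of 0.34 (0.24 to 0.44) and 0.15 (0.06 to 0.23) with butyrate. On the same scale it was higher at day 3 than at day 2 in untreated cultures, by 0.60 (0.50 to 0.70), and in treated cultures, by 0.40. Libraries of unlike day thus lay farther apart than libraries of unlike treatment. *Egln1*, the main prolyl hydroxylase (PHD2), was not detectably different at day 2, at −0.0014 (−0.10 to 0.10), and higher at day 3, at 0.22 (0.11 to 0.32). *Egln3* (PHD3), a hydroxylase gene that is itself induced by HIF and lies on chromosome 12 from 54178981 to 54203860, had a normalised count of 3622 in untreated and 4166 in treated organoids at day 2, and 2999 and 4822 at day 3. Its log2 fold change was 0.20 (0.14 to 0.27) at day 2 and 0.69 (0.62 to 0.75) at day 3.

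Of the 5 listed HIF targets, *Bnip3*, a mitophagy receptor gene on chromosome 7 from 138890836 to 138909519, differed most with butyrate at day 3, while *Ndrg1* did at day 2. *Bnip3* had a normalised count of 2113 in untreated and 2647 in treated organoids at day 2, and 1516 and 2979.8 at day 3. The untreated library at day 3 was the lowest and the treated library at day 3 the highest, a 1.97-fold gap, or 0.97 (0.88 to 1.07) as log2, against 0.32 (0.24 to 0.41) at day 2. Between the untreated libraries, day 3 over day 2, the log2 difference was −0.48 (−0.58 to −0.38). Its relative *Bnip3l* had log2 fold changes of 0.04 (−0.05 to 0.12) and 0.18 (0.10 to 0.26). *Vegfa*, the angiogenic growth factor, had a normalised count of 5533 in untreated and 5679 in treated organoids at day 2, and 4087 and 5456 at day 3. The day 2 libraries were not detectably different, at 0.04 (−0.02 to 0.09), and the difference at day 3 was 0.42 (0.36 to 0.48), where the untreated library was the low one of the 4.

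*Ankrd37*, a HIF-induced ankyrin repeat gene, had a normalised count of 820.1 in untreated and 722 in treated organoids at day 2, and 348 and 422 at day 3. Both day 3 libraries were below both day 2 libraries, with log2 differences of −1.24 (−1.42 to −1.06) between the untreated and −0.77 (−0.95 to −0.60) between the treated cultures. Its log2 fold changes with butyrate were opposite, −0.18 (−0.33 to −0.04) at day 2 and 0.28 (0.07 to 0.49) at day 3, and its exons share 349 bases with *Lrp2bp* (153 counts in all) and 57 with *Ufsp2* (4840 counts, against 2341 for *Ankrd37*). *Ndrg1*, a stress-induced gene on chromosome 15 from 66929318 to 66969640, had a normalised count of 6814 in untreated and 10267 in treated organoids at day 2, and 7083.5 and 9531 at day 3. Both treated libraries were above both untreated ones, by 1.51-fold at day 2 (0.59, interval 0.55 to 0.64) and 1.35-fold at day 3 (0.43, 0.38 to 0.47). Its day 2 difference just passed 1.5-fold and was under it with 3 other scalings. The untreated libraries differed by 0.06 (log2), or −0.02 when scaled to total counts.

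The untreated library at day 3 was the lowest of the 4 for 20 of the 35 genes compared, beside 23.8% of all genes, and for 5 of the 8 sensor and target genes (*Egln1*, *Egln3*, *Vegfa*, *Bnip3* and *Ankrd37*). *Hif1a*, *Ndrg1* and *Bnip3l* were instead lowest in the untreated library at day 2, with 0.60, 0.06 and 0.05 between the untreated libraries on the log2 scale. From day 2 to day 3 without butyrate, *Vegfa* had a log2 difference of −0.44, *Bnip3* of −0.48, *Pdk1* of −0.38, *Egln3* of −0.27, *Pgk1* of −0.32 and *Pfkfb3* of −0.82. With butyrate, the same interval gave −0.06, 0.17, 0.06, 0.21, −0.11 and 0.10. These 6 were picked with their values in view, and the 20 genes lowest in that library did not all share the pattern. Of the 20, 14 were lower at day 3 with butyrate too, and for 10, *Ldha*, *Aldoc*, *Pgam1*, *Pkm* and *Hk2* among them, the treated libraries differed by more than the untreated ones.

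**Figure D4:**
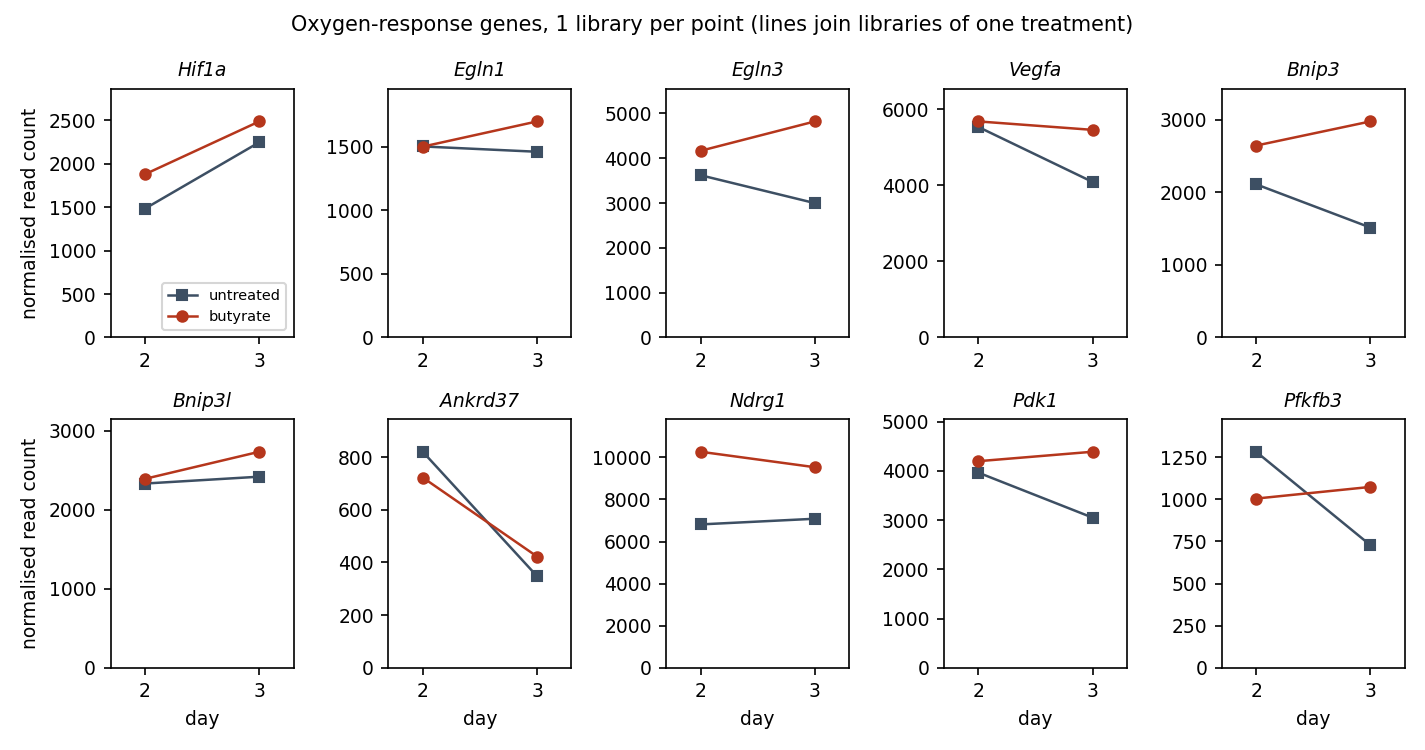
Normalised read count (linear axis from 0) of 10 oxygen-response genes against day, with 1 library per point and lines joining the libraries of a treatment (squares untreated, circles butyrate). For *Vegfa*, *Bnip3*, *Pdk1* and *Pfkfb3* the untreated line slopes down from day 2 to day 3 and ends below the butyrate line, whereas *Hif1a* is higher at day 3 under both treatments.

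The promoter windows of the 2 oxygen-response genes with the largest day 3 differences among the 8 listed, *Bnip3* at chr7:138909457-138909756 and *Egln3* at chr12:54203825-54204124, both on the minus strand, are shown with the same matches in capitals.
Bnip3: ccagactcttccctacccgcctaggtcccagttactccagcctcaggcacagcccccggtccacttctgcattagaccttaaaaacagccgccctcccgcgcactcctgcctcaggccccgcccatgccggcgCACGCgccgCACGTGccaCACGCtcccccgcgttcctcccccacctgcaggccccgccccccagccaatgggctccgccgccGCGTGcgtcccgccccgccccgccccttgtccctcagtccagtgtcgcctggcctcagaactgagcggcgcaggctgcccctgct
Egln3: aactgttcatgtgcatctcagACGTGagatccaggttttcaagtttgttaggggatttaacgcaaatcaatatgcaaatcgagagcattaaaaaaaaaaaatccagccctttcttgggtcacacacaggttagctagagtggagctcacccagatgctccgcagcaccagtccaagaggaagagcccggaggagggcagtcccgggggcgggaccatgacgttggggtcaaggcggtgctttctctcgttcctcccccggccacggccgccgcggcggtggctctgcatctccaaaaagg
The *Bnip3* window held 5 matches, of which the palindrome CACGTG at 108 bases before the start gives 2, and the match nearest the start begins 35 bases before it. The *Egln3* window held 1 match, 229 bases before the start.

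Other genes of these pathways, from lists drawn up by role, were mixed. For glucose and fructose transporters outside the list, 8 were compared, with medians of −0.11 at day 2 and −0.37 at day 3. The fructose transporter gene *Slc2a5* had a normalised count of 85.9 in untreated and 207 in treated organoids at day 2, and 82.9 and 72.4 at day 3, or log2 fold changes of 1.26 (0.90 to 1.65) and −0.19 (−0.68 to 0.28). *Slc2a6*, a further member of the family, had a normalised count of 66.5 in untreated and 146 in treated organoids at day 2, and 65.2 and 32.4 at day 3, or 1.12 (0.71 to 1.57) and −0.99 (−1.68 to −0.36). Both were therefore highest in the treated library at day 2. Among 11 further glycolytic genes the medians were 0.19 and −0.03. *Eno3*, the muscle enolase, stood at a normalised count of 129 in untreated and 572 in treated organoids at day 2, and 126 and 161 at day 3, and *Hkdc1*, a hexokinase domain gene, at 212 in untreated and 507 in treated organoids at day 2, and 339 and 310 at day 3. Their log2 fold changes were 2.14 (1.87 to 2.44) and 1.26 at day 2, and 0.35 (−0.002 to 0.70) and −0.13 (−0.36 to 0.10) at day 3. *Ldhd*, the D-lactate dehydrogenase, had log2 fold changes of 1.39 (1.04 to 1.77) and 0.61 (0.20 to 1.03).

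In a list on pyruvate and lactate, with 13 genes compared and medians of 0.16 and −0.05, the lactate exporter gene *Slc16a3* (MCT4), which also counts among HIF targets, had a normalised count of 1981 in untreated and 3941 in treated organoids at day 2, and 1346 and 2905 at day 3. Its log2 fold changes were 0.99 (0.92 to 1.07) and 1.11 (1.02 to 1.21), close to the difference of *Pfkm* at day 2 and above that of any listed gene at day 3. The mitochondrial malic enzyme gene *Me3* had log2 fold changes of 0.16 (−0.38 to 0.71) and −1.20 (−1.74 to −0.71). Gluconeogenesis and glycogen genes were lower with butyrate in 8 of 12 at day 2, beside 53.1% of all genes, and in 10 of 12 at day 3, beside 50.1%, with medians of −0.17 and −0.30. *Pck1*, the cytosolic gatekeeper of gluconeogenesis, had a normalised count of 137 in untreated and 86.2 in treated organoids at day 2, and 144 and 47.5 at day 3, or log2 fold changes of −0.66 (−1.06 to −0.28) and −1.58 (−2.12 to −1.11). The 8 pentose phosphate genes compared had medians of 0.02 and 0.06, and 0 of them passed 2-fold, which 3.93% and 2.33% of all genes did upwards and 1.54% and 1.6% downwards.

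Of 40 further genes of the HIF pathway, 24 were higher with butyrate at day 2 and 27 at day 3, beside 46.9% and 49.9% of all genes, and 19 at both, beside 29.5%, with medians of 0.08 and 0.11. At least 1.5-fold higher were 10 genes at day 2 and 9 at day 3, beside 8.94% and 5.88% of all genes, and at least 1.5-fold lower were 4 and 0, beside 6.43% and 5.13%. Among those with the largest differences, *Angptl4*, a secreted inhibitor of lipoprotein lipase, had a normalised count of 107 in untreated and 473 in treated organoids at day 2, and 77 and 168 at day 3, or log2 fold changes of 2.13 (1.83 to 2.45) and 1.12 (0.73 to 1.54). At each day the treated library lay above the untreated one. The collagen lysyl hydroxylase genes *Plod1* and *Plod2* had log2 fold changes of 1.14 and 0.96, and of 0.91 and 1.48. *Adm*, the peptide hormone adrenomedullin, had a normalised count of 198 in untreated and 220.5 in treated organoids at day 2, and 85.9 and 199.8 at day 3, with log2 fold changes of 0.15 (−0.13 to 0.43) at day 2 and 1.21 (0.84 to 1.60) at day 3, where the untreated library was again the low one. *Epas1*, which encodes HIF-2α and was singled out only once its values were known, was lower at both days, with log2 fold changes of −0.35 (−0.46 to −0.24) and −0.50 (−0.61 to −0.39).

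**Figure D5:**
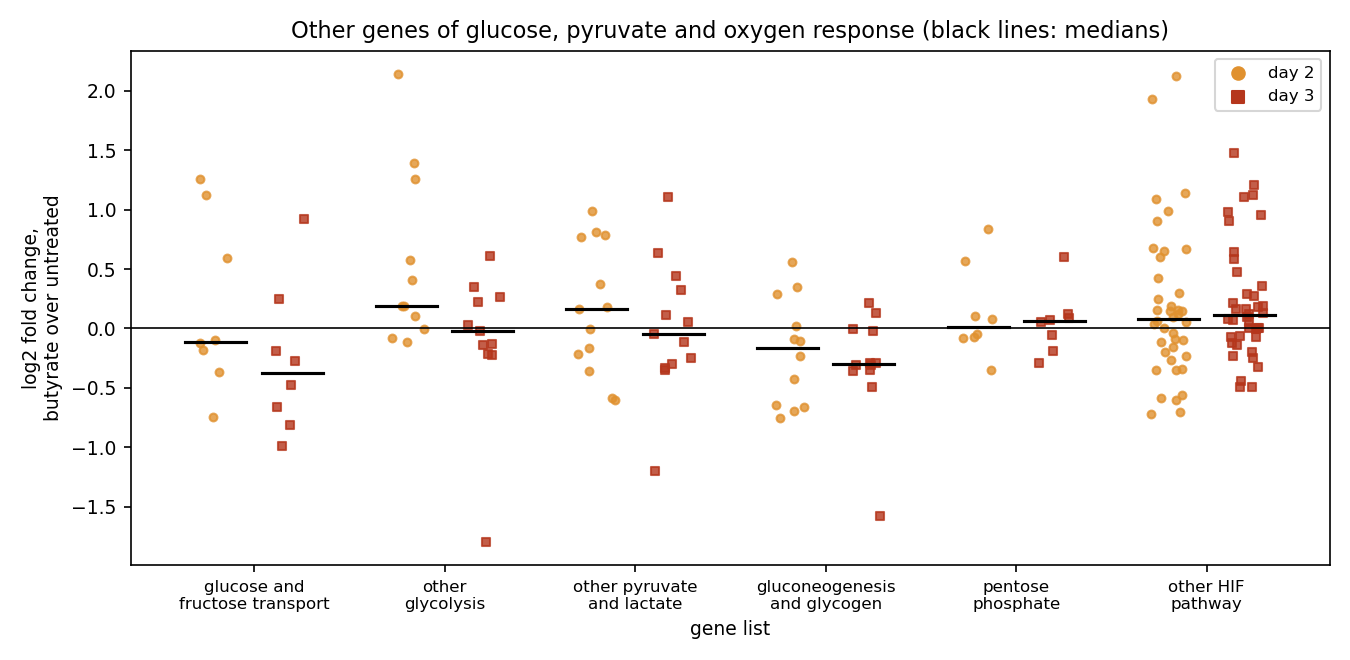
Log2 fold change of butyrate over untreated organoids for each gene compared in 6 further lists (circles day 2, squares day 3; black bars are medians). The points of every list lie on both sides of 0, and the medians run from −0.37 to 0.19.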

How the data were processed

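RNA was sequenced from mouse colonic organoids as poly-A enriched libraries with Illumina TruSeq chemistry, 1 library for each of 4 conditions, and conditions were taken from the sample labels. The authors deposited whole-number counts per gene. Per the study's methods, a core facility pre-processed the reads, transcript abundances came from pseudoalignment with *kallisto*, and *tximport* gave the gene totals, so the counts are rounded estimates. The submitters' processing notes name kallisto 0.44.0 and GRCm38.p6. The table had no normalisation and no filter. In its names 24 had become calendar dates, 2 of them listed more than once, none of them a gene described here.

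DESeq2 1.42.0 gave the size factors, from genes past the study's filter of over 10 counts in 2 or more libraries, and edgeR 4.0.16 the TMM factors (R 4.3.3). Other steps ran in Python 3.11.15 (scipy 1.17.1, pandas 2.3.3, numpy 2.4.6, matplotlib 3.10.9). Genes whose normalised count averaged 50 or more were compared by log2 fold change with a pseudocount of 1. The 95% interval is the exact Clopper-Pearson interval for the share of both counts that fell in the numerator library. Reads carried no molecular identifiers, and such intervals cover counting error only. The calculation was tested on simulated data. Positions, exon lengths and overlaps came from GENCODE M21 (GRCm38), and near-identical copies (at least 95% identity over 300 bases) from BLAST 2.17.0.

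The genes and lists were chosen with earlier results of these data known. All 36 genes were named, and those at least 1.5-fold apart in any comparison, together with *Slc2a1*, *Hk2*, *Pfkl*, *Pkm*, *Ldha*, *Ldhb*, *Pdk1*, *Hif1a* and *Vegfa*, were given in every library. Genes whose butyrate differences had opposite signs at the 2 days with both intervals excluding 0 were listed for a closer look. From each other list, genes at least 2-fold apart with butyrate at either day were named, at most the 5 largest of a list. Genes outside this rule are stated as such, and 2 genes within it are not reported here. Alternatives were TMM and total count scaling, the latter also without mitochondrial genes, size factors from all genes, a pseudocount of 5, other filters, copies or overlapping genes added or left out, and shares without exon length. The imaging, single-cell and human cell line experiments of the study were not analysed here.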

Additional observations from a re-analysis of the deposited data

Results flagged for a closer look

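In 4 genes the difference between butyrate-treated and untreated organoids had opposite signs at day 2 and day 3, with both counting intervals away from 0. As log2 fold changes, *Hk1* was higher at day 2, at 0.68, and lower at day 3, at −0.09, although with scaling to total counts its day 3 value was −0.04 (−0.10 to 0.02), an interval that includes 0. *Pfkl* was lower at day 2, at −0.16, and higher at day 3, at 0.29. *Pfkfb3* was lower at day 2, at −0.35, and higher at day 3, at 0.56. *Ankrd37* was lower at day 2, at −0.18, and higher at day 3, at 0.28. With 1 library per condition the difference between the days was not tested.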

How the results depend on the processing

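Of 752 single-gene fold changes recomputed, 707 stayed within their counting interval, 44 left it with no called difference changing sign, and 1 reversed. Of the medians, 157 of 164 stayed within the median interval of their genes, and of the counts of genes 119 of 128 were within 1.5 times. TMM scaling, a pseudocount of 5, size factors from all genes and the addition of listed retrocopies moved none of them past these limits. *Ndrg1*, at 0.59 just past the 1.5-fold limit of 0.585 at day 2, came to 0.58 and under it with TMM scaling, total counts without mitochondrial genes or size factors from all genes, which leaves 4 genes in place of 5. Scaling to total counts, which brought the median of all genes to −0.08 between the untreated libraries and to 0.05 with butyrate at day 3, reversed *Ndrg1* between the untreated libraries (−0.022). It also gave medians of 0.47 for lower glycolysis at day 3, of 0.18 (glucose entry), −0.32 (upper glycolysis), −0.15 (lower glycolysis) and −0.52 (HIF targets) between the untreated libraries, and of −0.15 (upper) and −0.20 (lower glycolysis) between the treated ones. Under it 5 genes were at least 1.5-fold and 1 (*Bnip3*) at least 2-fold higher with butyrate at day 3, and 0 at least 1.5-fold higher between the untreated libraries, as without mitochondrial genes (0). With the study's own filter (over 10 counts in 2 or more libraries) or none, which let *Eno2* in, that count was 2. Without the 6 genes whose counts may be shared with another gene, an alternative chosen after seeing the data, 1 was at least 1.5-fold and 0 at least 2-fold lower between the untreated libraries, and 1 at least 1.5-fold lower between the treated ones. Also chosen after seeing the data were sums of *Pgk1* with its copies, which took its day 3 log2 fold change past 1.5-fold to 0.60, and of *Pfkp* with *Pitrm1*, which gave 0.08 at day 3.

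As shares of raw counts, in untreated and treated organoids at day 2 and then day 3, *Hk2* held 52.8%, 47.8%, 42.4% and 48.8%, *Pfkm* 2.43%, 4.71%, 2.00% and 3.41%, *Pfkp* 49.1%, 52.9%, 57.2% and 51.3%, *Aldoc* 3.59%, 4.06%, 3.05% and 2.86%, *Ldhb* 1.07%, 0.606%, 1.16% and 0.970%, and *Pdk1* 78.4%, 78.2%, 73.3% and 82.3%. No condition had a replicate to pair or leave out. A fit with day and butyrate as additive terms, which would count any unlike response at the 2 days as error, was not run. Counting error was small for abundant genes, and the spread between replicate cultures is unknown. *Eno2*, with at most 15 counts, was the scarcest gene.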

Other observations

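Lactate leaves and enters cells through monocarboxylate transporters, which need the chaperone basigin and also carry butyrate. Besides *Slc16a3*, the gene for MCT1, *Slc16a1*, had normalised counts of 3040 in untreated and 5242 in treated organoids at day 2, and 3048 and 3816 at day 3, or log2 fold changes of 0.79 (0.72 to 0.85) and 0.32 (0.25 to 0.39). *Bsg*, which encodes basigin, had a normalised count of 18723.5 in untreated and 31907 in treated organoids at day 2, and 15089 and 23433.5 at day 3, or log2 fold changes of 0.77 (0.74 to 0.79) and 0.64 (0.61 to 0.67). For all 3 genes both treated libraries lay above both untreated ones. *Slc16a1* and *Bsg* were named after their values were seen.

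Carbonic anhydrase genes of the HIF pathway list differed from each other. *Car9*, a widely used hypoxia marker, had a normalised count of 3702 in untreated and 3875 in treated organoids at day 2, and 3144 and 3645 at day 3, or log2 fold changes of 0.07 (0.0019 to 0.13) and 0.21 (0.14 to 0.28), whereas *Car12* had a normalised count of 1697 in untreated and 3614 in treated organoids at day 2, and 1836 and 1930 at day 3, or 1.09 (1.01 to 1.17) and 0.07 (−0.02 to 0.17). The prolyl hydroxylase gene *Egln2* was lower at both days, with log2 fold changes of −0.20 (−0.32 to −0.07) and −0.44 (−0.58 to −0.31), unlike *Egln3*. These 3 genes were also named after their values were seen.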
